A study of Mus musculus with 2 samples.

Results

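Serpins are protease inhibitors that share a common fold, in which an exposed loop is cut by the target protease and traps it. Most clades inhibit serine proteases, several clade B members also inhibit cysteine proteases of the cathepsin type, and a few members, such as the collagen chaperone Serpinh1, inhibit none. Clade A holds secreted inhibitors best known from liver and blood plasma, whereas clade B holds inhibitors that mostly stay inside the cell and are common in squamous epithelium and leukocytes. In the forming tooth, ameloblasts secrete enamel matrix and depend on extracellular proteases to process it.

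The family was read from arrays of newborn mouse incisor, and its members are the genes whose name on the array starts with Serpin, a clade letter from a to i, and a number. This rule took 60 of the 21244 genes with a probe, through 76 probes on 85 spots. The wild-type (WT) group was 1 array of P0 wildtype incisor RNA, for which the methods name C57BL/6J mice, and the *Sox21* KO group was 1 array of P0 Sox21KO incisor RNA from mice lacking the transcription factor Sox21. The methods give postnatal day 1 rather than day 0, and the strain of the KO line, the removed part of the gene and the number of animals behind each RNA are not given in the sources used here. The tissue was dissected tooth germ, so epithelium, mesenchyme and adhering tissue could all contribute, and fewer cells of a type cannot be told apart from less RNA per cell. A difference of strain cannot be told apart from the genotype.

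Each value is the scanner software's processed signal, a background-subtracted intensity, and each ratio is the log2 of *Sox21* KO over WT after division by the 75th percentile of the array, 268 for WT and 276 for KO. A gene counted as measured when the scanner software marked its brightest probe as well above background on both arrays. With 1 array a genotype there is no biological replicate and no test. The errors given are the scanner software's own, carried to the log2 ratio as a standard error (SE), and they leave out differences between animals. Signals counted as well above background began at 21.3 for WT and at 19.5 for KO, with 0 saturated spots. The brighter *Sox21* probe read 1362 in WT and 659 in KO, and the other 286 and 103, log2 ratios of -1.09 and -1.51. Both stayed above background on the KO array, and it is not known here whether either probe lies in the deleted part. The ameloblast markers *Amelx*, *Ambn* and *Enam* were measured on both arrays, as defining genes of the labelled tissue.

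The results turn on the clade B genes of chromosome 1, so the 250 bases before their transcription starts are shown first. Of the 12 genes of that group, 11 had a RefSeq promoter (assembly GRCm38.p6). Those printed are *Serpinb3a*, *Serpinb3c*, *Serpinb2* and *Serpinb10-ps*, the 4 with the highest ratios of the group, *Serpinb3b*, a close copy that was not above background on either array, and *Serpinb5*, which was lower in KO. *Serpinb10-ps* is the name on the array for the gene that RefSeq calls *Serpinb10*. Capitals mark TATAAA, the core of a TATA box, TGANTCA, a site of AP-1 factors, and ACAAT, the core bound by Sox factors, each searched on both strands.

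Serpinb3a, chr1:107052304-107052553, minus strand: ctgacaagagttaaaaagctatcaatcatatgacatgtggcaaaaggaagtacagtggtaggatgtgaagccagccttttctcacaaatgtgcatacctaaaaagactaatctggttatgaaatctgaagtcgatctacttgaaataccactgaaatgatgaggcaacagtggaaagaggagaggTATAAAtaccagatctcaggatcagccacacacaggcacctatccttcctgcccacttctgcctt
Serpinb3c, chr1:107278372-107278621, minus strand: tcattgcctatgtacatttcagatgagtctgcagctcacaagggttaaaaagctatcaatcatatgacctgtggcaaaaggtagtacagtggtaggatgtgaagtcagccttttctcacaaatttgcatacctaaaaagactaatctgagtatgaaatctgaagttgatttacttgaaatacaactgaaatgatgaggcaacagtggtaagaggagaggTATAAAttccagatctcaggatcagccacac
Serpinb3b, chr1:107161115-107161364, minus strand: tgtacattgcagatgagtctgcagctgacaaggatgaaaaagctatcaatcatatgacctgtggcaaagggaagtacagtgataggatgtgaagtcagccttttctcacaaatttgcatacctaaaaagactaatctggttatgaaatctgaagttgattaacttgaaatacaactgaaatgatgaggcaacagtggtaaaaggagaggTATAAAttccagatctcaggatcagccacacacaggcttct
Serpinb2, chr1:107511173-107511422, plus strand: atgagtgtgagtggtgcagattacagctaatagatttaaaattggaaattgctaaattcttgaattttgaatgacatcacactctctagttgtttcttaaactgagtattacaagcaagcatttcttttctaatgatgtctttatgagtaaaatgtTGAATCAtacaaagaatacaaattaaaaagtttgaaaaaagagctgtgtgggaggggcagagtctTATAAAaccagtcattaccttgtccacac
Serpinb10-ps, chr1:107528753-107529002, plus strand: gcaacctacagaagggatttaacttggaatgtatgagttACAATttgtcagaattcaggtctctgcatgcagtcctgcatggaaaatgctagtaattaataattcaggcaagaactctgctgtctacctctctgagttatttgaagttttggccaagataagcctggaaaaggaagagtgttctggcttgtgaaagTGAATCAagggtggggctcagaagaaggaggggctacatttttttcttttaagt
Serpinb5, chr1:106860925-106861174, plus strand: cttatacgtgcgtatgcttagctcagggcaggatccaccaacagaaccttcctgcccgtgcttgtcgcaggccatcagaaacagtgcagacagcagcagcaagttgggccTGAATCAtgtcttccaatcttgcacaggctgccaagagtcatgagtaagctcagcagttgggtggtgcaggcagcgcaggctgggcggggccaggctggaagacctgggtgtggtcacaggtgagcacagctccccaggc

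The 3 *Serpinb3* copies that are printed each held 1 TATAAA, beginning 65 bases before the start in *Serpinb3a*, 31 in *Serpinb3c* and 41 in *Serpinb3b*, and none held TGANTCA or ACAAT. RefSeq lists more than 1 start for *Serpinb2*, and the window shown, that of the more upstream start, held TATAAA 29 bases and TGANTCA 94 bases before it. *Serpinb10-ps* held TGANTCA at 54 and ACAAT at 211 bases, and *Serpinb5* held TGANTCA at 140 bases. In windows that are not printed, TGANTCA also occurred in *Serpinb8*, at 23 bases, and in the unmeasured *Serpinb7*, *Serpinb11* and *Serpinb12*. The site thus did not follow the ratio within the group. Among 32851 mouse promoter windows of the same length, 12.4% held TATAAA, 6.75% TGANTCA and 27.7% ACAAT. These are matches of letters and not known binding sites. The upstream sequences of *Serpinb3b* and *Serpinb3c* were 88.1% identical over 260 alignment columns, those of *Serpinb3a* and *Serpinb3b* 77.0%, and those of *Serpinb3a* and *Serpinb3c* 71.5%, against 42.1% to 53.1% in 70 pairs of windows with at least 1 gene outside the *Serpinb3* copies. Another copy, *Serpinb3d*, lowered the range among the copies to 44.5%. *Serpinb3b*, whose upstream sequence was nearest to that of *Serpinb3c*, had no signal above background.

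Across the family, most measured members read higher on the *Sox21* KO array, and those past 2-fold lay together on chromosome 1. Of the 60 genes, 28 were measured on both arrays, 1 was above background only in WT, 3 only in KO, and 28 in neither genotype. Of all 21244 genes the same classes held 64.9%, 1.30%, 2.14% and 31.6%. Among the 28 measured genes, 24 had a ratio above 0 (85.7%) and 4 below, where 52.5% of the 13796 genes measured on the array had a ratio above 0. Without a filter on background, 37 of all 60 members had a ratio above 0, beside 42.5% of all genes. The 28 measured members had a median log2 ratio of 0.36 against 0.01 for all measured genes. The genes *Serpinb3a*, *Serpinb2* and *Serpinb3c* were at least 2-fold higher, that is 3 of 28 measured members, beside 0.739% of all measured genes. None of the 28 was at least 2-fold lower, beside 0.681% of all. With normexp, another background correction, *Serpinb3a* alone stayed past 2-fold (log2 1.01) and the median was 0.15. At 1.5-fold, 8 members were higher (28.6%, beside 3.20% of all measured genes) and 0 were lower (2.99% of all). *Serpina3b* at 0.60 lay just inside that limit and *Serpine2* at 0.58 just outside it. Members share a locus and in part their sequence, so they are not independent of each other.

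**Figure D1:**
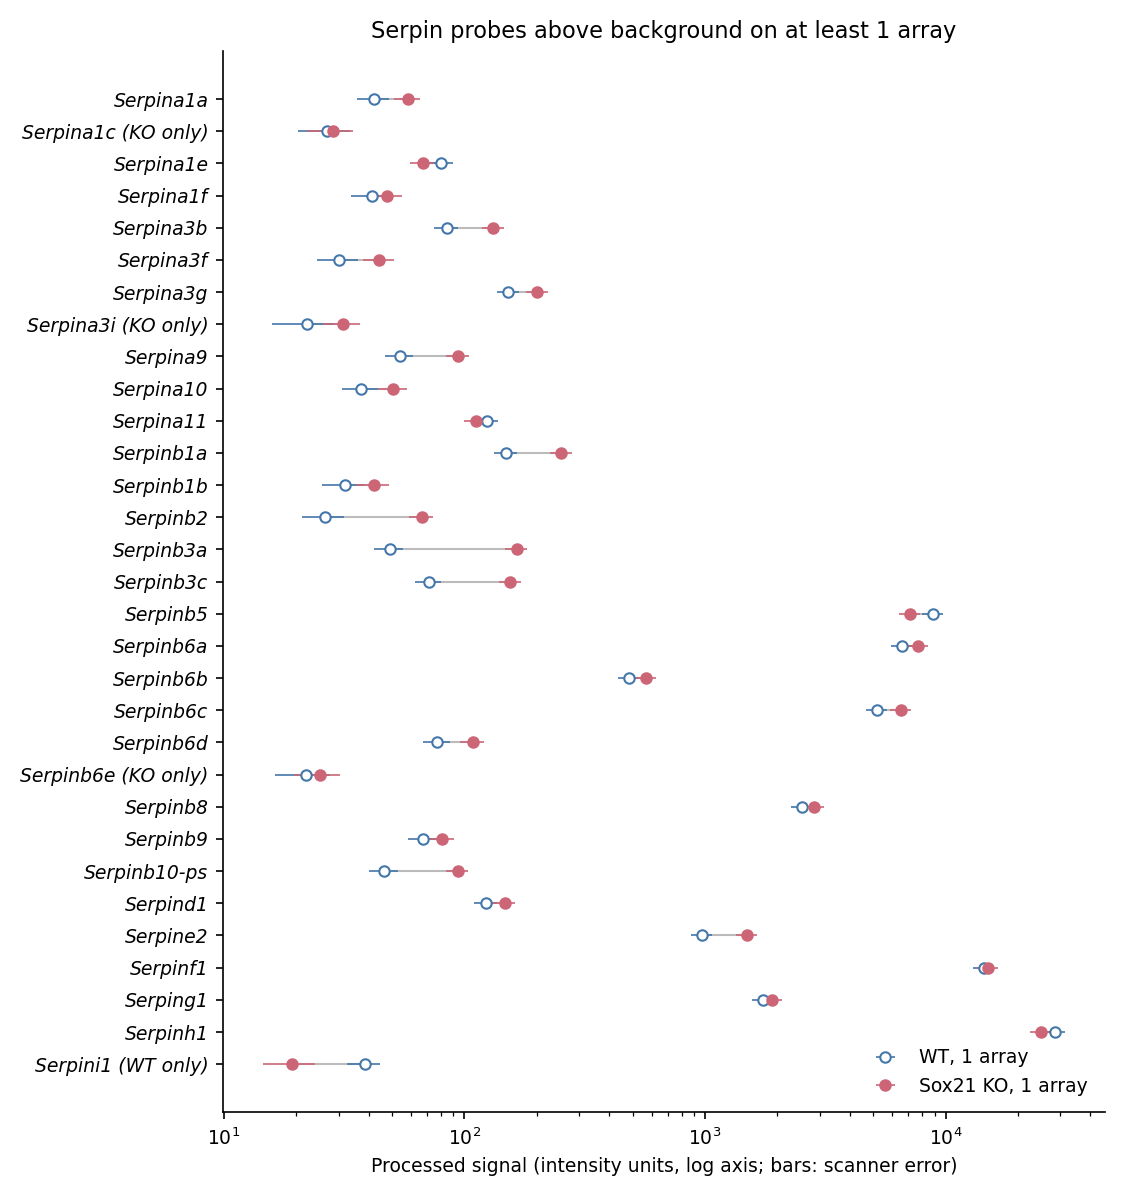
Processed signal (log axis, intensity units) of the Serpin genes named here that were above background on at least 1 array, with open points for the WT array, filled points for the Sox21 KO array and bars for the scanner software's error. Serpinb3a reads 48.8 in WT and 165 in KO, whereas Serpinh1, Serpinb5, Serpina1e, Serpina11 and Serpini1, the last above background in WT alone, are lower in KO.

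The scanner's SE of the log2 ratio ranged from 0.20 to 0.36 over the 28 genes. A ratio above 0 by more than 1 SE was found for 16 of them and one below 0 by more than 1 SE for 3, and by more than 2 SE for 9 and 0. The share of all measured genes past these limits was not computed, so these counts have no background to be read against. Most measured members read higher in each class of brightness. Of 11 members with a mean signal under 100, 10 read higher, with a median of 0.42 and a range of -0.30 to 1.30, where 50.7% of the 2327 genes as dim read higher. In that class 1 member was at least 2-fold higher, beside 1.38% of all genes as dim. Of 9 members between 100 and 1000, 8 read higher (53.8% of all genes of that brightness), with a median of 0.60, and 2 were at least 2-fold higher, beside 0.903% of those genes. Of 8 members over 1000, 6 read higher (51.7% of all genes as bright), with a median of 0.11 and a range of -0.35 to 0.58. Probes spotted repeatedly had a median SD of the log2 ratio of 0.27 under a signal of 100, 0.09 between 100 and 1000 and 0.06 above, so ratios of the dimmest members are the least precise.

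**Figure D2:**
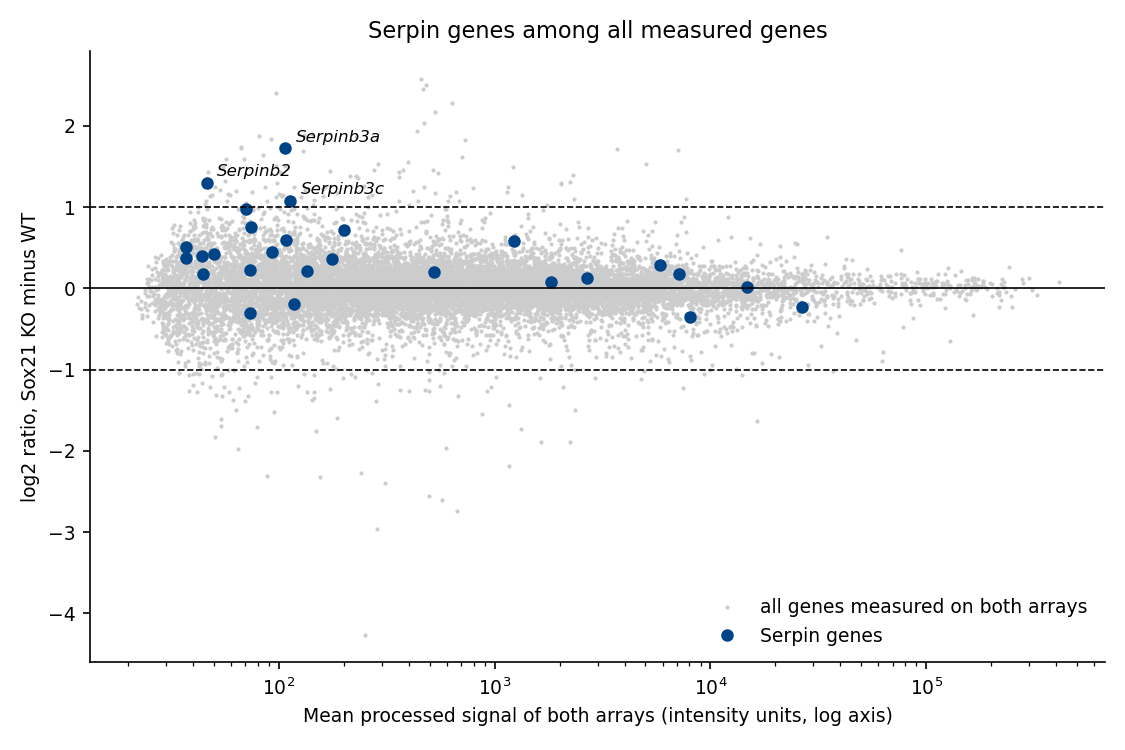
The log2 ratio (Sox21 KO minus WT) against the mean processed signal of both arrays (log axis) for all 13796 genes measured on both arrays (grey) and the measured Serpin genes named here (blue), with dashed lines at 2-fold. Serpinb3a, Serpinb2 and Serpinb3c lie above the upper line and no Serpin gene lies below the lower one.

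The clade B genes of chromosome 1 span 726 kb (mm9 chr1:108778585-109504924) and include serpins of stratified epithelium. Of these 12 genes, 6 were measured, 5 of them higher in KO, with a median log2 ratio of 1.03. That median was 0.50 with normexp, 0.37 without a filter on background and 0.61 over genes with a mean signal of 100 or more. *Serpinb3a*, a mouse relative of the human squamous cell carcinoma antigens, which inhibit proteases in squamous epithelium, read 48.8 in WT and 165 in KO, a 3.28-fold difference (log2 1.72, SE 0.25). *Serpinb2*, plasminogen activator inhibitor 2, which is made by keratinocytes and macrophages, read 26.3 and 66.5, a 2.46-fold difference (log2 1.30, SE 0.33) that was 0.53 on the log2 scale with normexp. These were the largest ratios of the family, and the WT signal of *Serpinb2* lay close to the lowest one marked as above background. *Serpinb2* is also among the genes that the paper lists as higher from the same arrays.

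*Serpinb3c*, a near copy of *Serpinb3a*, read 71.2 in WT and 155 in KO as the mean of 7 spots, a 2.12-fold difference (log2 1.08, SD 0.20 between spots). Among those spots WT signals ran from 59.9 over a median of 70.4 to 88.9, and KO signals from 143 over a median of 152 to 166. These spots did not overlap between the arrays, but they repeat 1 hybridization and not animals. A further 3 spots were marked as outliers by the scanner software and left out. With them the arrays overlapped, since WT signals reached 145 and KO signals went down to 124. Over all 10 spots every ratio was above 0, from 0.18 to 1.43, and their mean of 0.99 lay just under the 2-fold limit, which left 2 genes past it. *Serpinb10-ps*, known as bomapin from blood-forming cells, read 46.5 and 93.7, and its log2 ratio of 0.97 (SE 0.25) lay just below that limit.

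**Figure D3:**
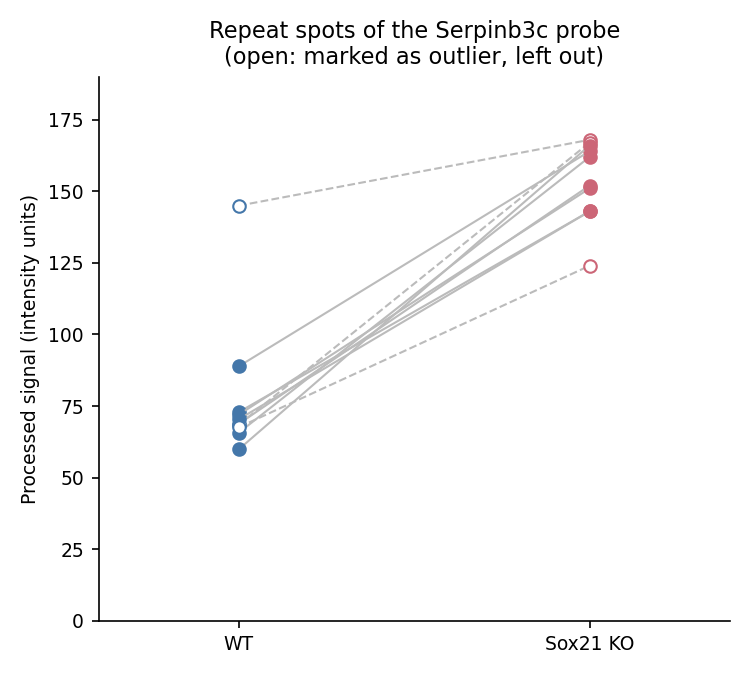
Processed signal (intensity units) of the 10 spots of the Serpinb3c probe on the WT and Sox21 KO arrays, with a line for each spot and open points and dashed lines for the 3 spots marked as outliers. Each of the 10 spots is higher on the KO array, and 1 outlier spot reads 145 on the WT array.

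The other measured genes of the group were at its ends. *Serpinb5*, or maspin, an epithelial serpin first described in breast epithelium, read 8868 in WT and 7144 in KO, a log2 ratio of -0.35 (SE 0.20). *Serpinb8*, an inhibitor inside the cell, read 2519 and 2833, a log2 ratio of 0.13 (SE 0.20). The 6 genes not above background on either array were *Serpinb12*, *Serpinb13*, *Serpinb3d*, *Serpinb3b*, *Serpinb11* and *Serpinb7*, several of which are known from skin, and they lay between genes that were measured. *Serpinb12* read 13.3 in WT and 20.9 in KO, and its KO spot was unmarked although marked signals began at 19.5, since the mark is set for each spot. They have no ratio, so their direction is unknown. Probes of *Serpinb3a* and *Serpinb3c* matched at 43 of 47 aligned bases, and whether transcripts of either gene bound the other's probe was not tested.

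Most measured markers of stratified epithelium other than ameloblasts read higher in KO. Of 8 markers of cornified skin, 6 were measured and 5 read higher, the median log2 ratio was 0.75, and their summed normalised signal was 12.3 in WT and 22.3 in KO. In that list *Ivl* was at background on both arrays, and *Flg* was above it in KO alone. Of 6 markers of oral and suprabasal mucosa, 4 were measured, all higher, with sums of 21.9 and 43.2, and *Krt4* and *Krt78* were above background in KO alone. The basal keratinocyte markers summed to 658 and 787 (5 of 6 higher, median 0.20). At least 2-fold higher were 3 measured markers of cornified skin, 2 of mucosa and 1 of basal keratinocytes, and none was 2-fold lower, beside 0.739% and 0.681% of all measured genes. Of the 8 ameloblast markers 2 read higher and 6 lower, 3 of them at least 2-fold, with a median log2 ratio of -0.64. Their sums of 3164 and 2867 mostly follow *Amelx* and *Ambn*, at 1472 and 991 in WT. From the same arrays, the paper already lists *Krt1*, *Krt6a*, *Krt6b* and *Krt15* as higher and *Amtn*, *Klk4* and *Slc24a4* as lower. The 2-fold counts of these marker lists are therefore not independent of what was known, and the shares of all genes beside them are no test. The part of a different amount of skin or oral epithelium in the serpin values was not tested.

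**Figure D4:**
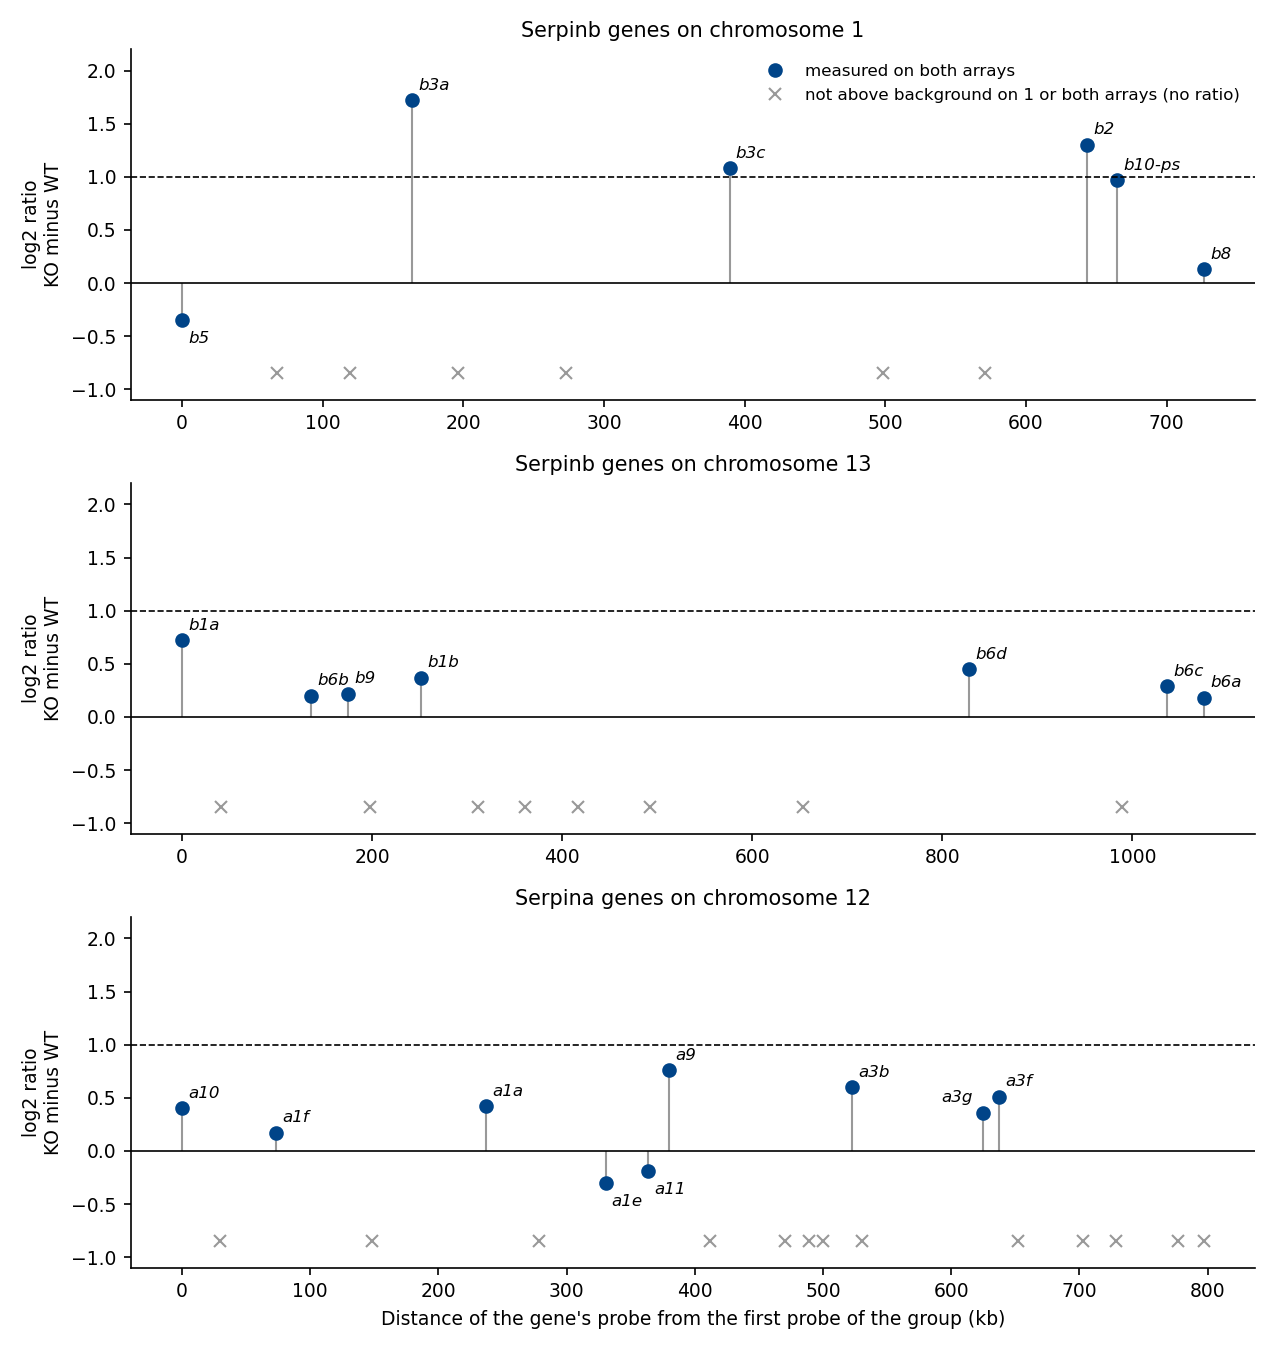
The log2 ratio (Sox21 KO minus WT) along the 3 groups of neighbouring Serpin genes, by distance in kb from the first probe of each group, with crosses for genes that have no ratio because they were not above background on 1 or both arrays and a dashed line at 2-fold. On chromosome 1 the 4 genes near or past 2-fold lie between Serpinb5 (-0.35) and Serpinb8 (0.13), with unmeasured genes among them, and on chromosome 13 all 7 measured genes lie between 0.18 and 0.72.

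The other group of clade B genes, 15 genes over 1075 kb of chromosome 13 (mm9 chr13:32934693-34009855), showed smaller ratios. All 7 measured genes read higher, with a median of 0.29 (0.18 with normexp) and a range of 0.18 to 0.72. *Serpinb1a*, an inhibitor of neutrophil elastase, read 149 in WT and 253 in KO (log2 0.72, SE 0.21), and its relative *Serpinb1b* read 31.8 and 42.1 (log2 0.37, SE 0.36). *Serpinb9*, an inhibitor of granzyme B, read 67.2 and 80.6 (log2 0.22, SE 0.26). Of these 3 only *Serpinb1a* exceeded its SE by more than 2 times.

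The *Serpinb6* genes encode inhibitors inside the cell, of which the first, *Serpinb6a*, is found in many tissues. *Serpinb6a* read 6594 in WT and 7712 in KO (log2 0.18, SE 0.20), and *Serpinb6b* read 483 and 569.7 (log2 0.20, SE 0.21). *Serpinb6c* read 5192 and 6525 (log2 0.29, SE 0.20), and its other probe gave 0.26. *Serpinb6d* read 77.1 and 108, a log2 ratio of 0.45 with an SE of 0.24. *Serpinb6e* was above background in KO alone, at 25.0 against 22.0. Its 1.1-fold difference lay within the scanner's error (SE 0.49 on the log2 scale), so its direction is not known. A probe of *Serpinb6c* and that of *Serpinb6a* shared 55 of 59 aligned bases, and binding across copies was not tested. The other 7 genes, *Serpinb1c* and *Serpinb9b* to *Serpinb9g*, were on neither array above background.

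Clade A, the secreted plasma inhibitors, was mostly at or near background in the incisor. Of its 23 genes, 9 were measured, 2 were above background in KO alone and 12 on neither array. Of the 9, 7 read higher, with a median log2 ratio of 0.40 and a range of -0.30 to 0.76. With normexp that median was 0.13, and *Serpina9* was at 0.38, *Serpina3f* at 0.15, *Serpina1a* at 0.13 and *Serpina10* at 0.08. All the measured genes lie among 22 neighbouring genes on chromosome 12 (mm9 chr12:104854887-105651977). Of 6 liver markers, 5 were not above background on either array, *Alb* and *Apoa1* among them.

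*Serpina9*, known as centerin from germinal centre B cells, read 54.1 in WT and 94.4 in KO (log2 0.76, SE 0.25). Among the antichymotrypsin-related genes, *Serpina3b* read 84.5 and 132 (log2 0.60, SE 0.23), *Serpina3g*, which leukocytes express, read 152 and 201 (log2 0.36, SE 0.21), and *Serpina3f* read 30.2 and 44.3 (log2 0.51, SE 0.35). *Serpina3i* was above background in KO alone, at 31.4 against 22.2. Its 1.37-fold difference lay within the scanner's error (SE 0.49 on the log2 scale). The probes of *Serpina3f* and *Serpina3b* shared 45 of 50 aligned bases. *Serpina10*, an inhibitor of coagulation factor X that acts with protein Z, read 37.3 and 50.6 (log2 0.40, SE 0.32).

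The measured alpha-1-antitrypsin genes did not share a direction. *Serpina1a* read 42.1 in WT and 58.2 in KO (log2 0.42, SE 0.29), but its dimmer probe gave -0.03. *Serpina1e* read 80.2 and 67.0 (log2 -0.30, SE 0.23), and its dimmer probe gave -0.87. *Serpina1f* read 41.1 and 47.5 (log2 0.17, SE 0.34). *Serpina1c* was above background in KO alone, at 28.3 against 26.8. Its 1.03-fold difference lay within the scanner's error (SE 0.47 on the log2 scale), so its direction is not known. Probes of *Serpina1c* and *Serpina1e* shared 56 of 59 aligned bases. *Serpina11*, a less studied neighbour, read 124 and 112 (log2 -0.19, SE 0.22), whereas its dimmer probe, at 78.0 and 108, gave 0.43. The direction of *Serpina11* and *Serpina1a* thus depended on the probe.

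**Figure D5:**
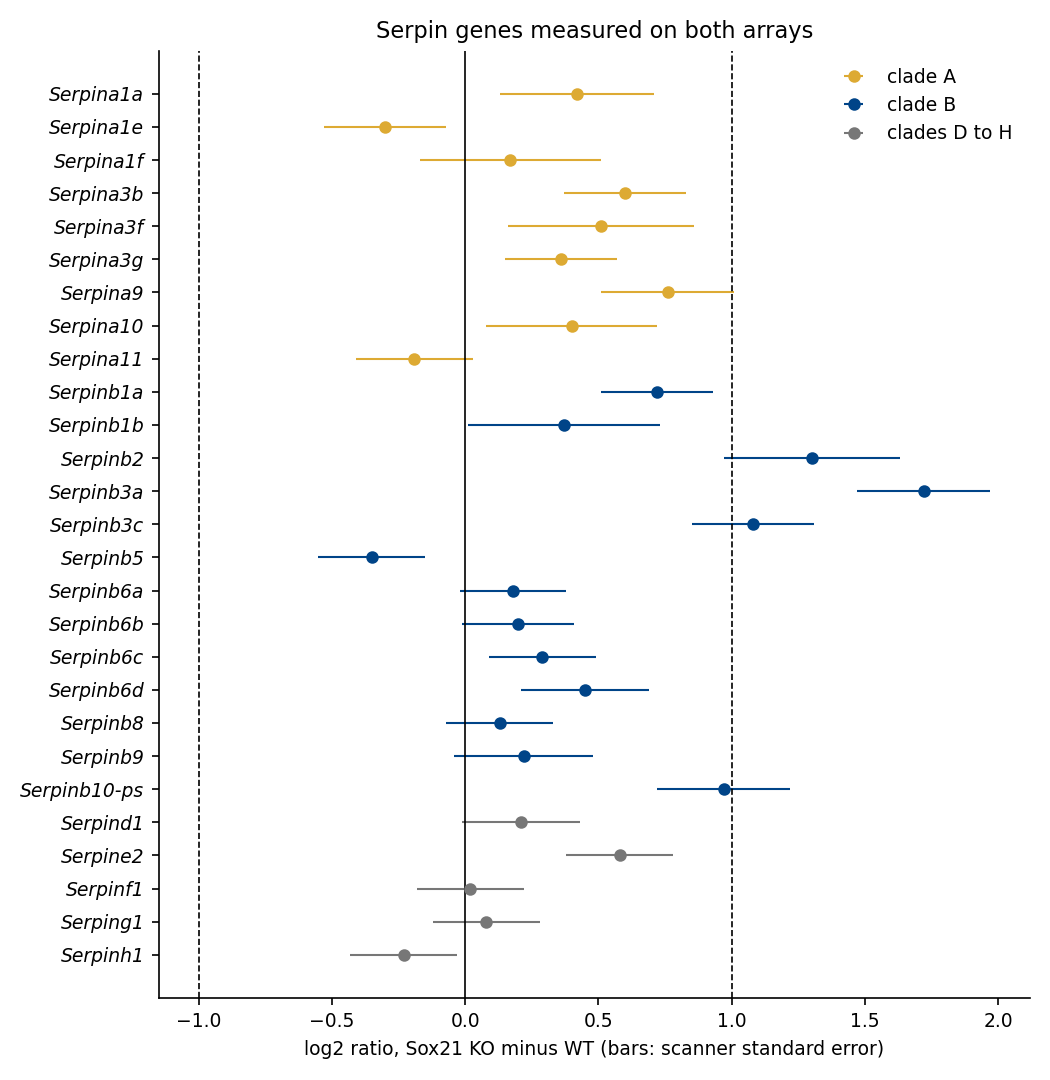
The log2 ratio (Sox21 KO minus WT) of the Serpin genes named here and measured on both arrays, coloured by clade, with bars of 1 scanner standard error and dashed lines at 2-fold. The bars of Serpinb3a (1.72, SE 0.25) do not overlap those of Serpinb3c (1.08, SE 0.23), whereas the bars of Serpinb2 (1.30, SE 0.33) overlap both.

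The remaining clades, C to I, hold 10 genes, of which 6 were measured, 5 higher in KO, with a median log2 ratio of 0.15. *Serpine2*, or protease nexin-1, which inhibits thrombin and urokinase and is secreted by mesenchyme, read 967 in WT and 1492 in KO, a log2 ratio of 0.58 with an SE of 0.20. The ratio exceeded its SE more than 2 times over and rests on 1 probe on 1 spot. Summed marker signals of cells that could hold genes of these clades were 54.9 in WT and 55.9 in KO for endothelium, 35.2 and 43.5 for macrophages and leukocytes, and 274 and 327 for odontoblasts and bone. By gene, 5 of 6 endothelial markers read higher, with a median log2 ratio of 0.22, against 2 of 4 measured macrophage and leukocyte markers and 7 of 8 odontoblast and bone markers. *Kdr* gave 43.8 of the WT sum for endothelium and *Csf1r* 32.9 of that for macrophages and leukocytes, so these sums mostly follow 1 bright probe each. The cartilage markers summed to 13.9 and 21.8 and those of skeletal muscle to 65.4 and 47.6, and the part of these cells in the values was not tested.

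*Serpinh1*, the collagen chaperone Hsp47 of the endoplasmic reticulum, read 28414 in WT and 24945 in KO (log2 -0.23, SE 0.20). *Serpinf1*, pigment epithelium-derived factor, which limits vessel growth and takes part in bone mineralisation, read 14401 and 15053 (log2 0.02, SE 0.20), and its other probe gave 0.15. *Serping1*, the C1 inhibitor of complement, read 1742 and 1899 (log2 0.08, SE 0.20), and its other probe gave 0.28. *Serpind1*, heparin cofactor II, read 123 and 147 (log2 0.21, SE 0.22). At the brighter probe of each, only *Serpinh1* lay more than 1 SE from 0, by a small margin, as did the other *Serping1* probe (SE 0.20).

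*Serpini1*, or neuroserpin, which inhibits tissue plasminogen activator in neurons, was the only member above background on the WT array alone. It read 38.6 in WT and 19.2 in KO, at least 2.04-fold lower before scanner error (SE 0.42 on the log2 scale). Its other probe was not above background on either array. With normexp the bound was 1.27-fold. The neuron and Schwann cell markers read lower as well, in 5 of 5 measured genes, with a median log2 ratio of -0.44 and sums of 66.0 and 47.7, and their part in the *Serpini1* value was not tested. Antithrombin (*Serpinc1*), alpha-2-antiplasmin (*Serpinf2*) and *Serpini2* were not above background on either array. Over all 28 genes on neither array, signals were 4.26 to 13.3 in WT and 3.95 to 20.9 in KO, so a low level of any of them could not be detected here.

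The pooled median of the proteases, partners and other inhibitors lay near that of all measured genes, but single lists and genes differed from it. Over 8 lists of 62 genes, 39 were measured, 22 higher and 17 lower in KO, with a median log2 ratio of 0.05. By list, medians ran from -0.55 for leukocyte and mast cell proteases to 0.22 for cofactors and receptors. Single genes ran from -0.99 to 2.03. Past 2-fold, 2 were higher and 0 lower, beside 0.739% and 0.681% of all measured genes, and both were inhibitors of other families that are made in stratified epithelium. *Spink5*, a Kazal-type inhibitor of the epidermal kallikreins, read 181 in WT and 762 in KO (log2 2.03, SE 0.21). The paper already lists *Spink5* as higher from the same arrays. *Slpi*, the secretory leukocyte protease inhibitor of mucosal surfaces, read 192 and 531 (log2 1.43, SE 0.21). The other 4 measured genes among 9 inhibitors outside the family read lower, down to -0.45.

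Among target proteases, all 5 lysosomal cysteine cathepsins had a ratio above 0, as did 52.5% of all measured genes. These ratios ran from 0.01 to 0.47 with a median of 0.19, and those up to the median lay within their SE of 0.20 to 0.21. The 3 measured of 7 leukocyte and mast cell proteases read lower, with a median of -0.55 and a lowest ratio of -0.99. Of 5 measured mast cell markers 4 read lower, but *Cma1* and *Mcpt4* stand in both lists, so these counts are not separate. Of 10 plasminogen and coagulation proteases, 2 were measured, at -0.08 and 0.09, and 1 of these, *F10*, is uncertain. Its brighter probe read 330703 and 321742 while its other probe was not above background, and whether the bright signal comes from *F10* is not known here. Of 8 epidermal and membrane serine proteases, 4 were measured, from -0.58 to 0.32, and 2 of 4 complement proteases read 0.07 and 0.14. Of the 10 plasma proteases, 7 were above background on neither array. The urokinase gene *Plau* was above background in KO alone, at least 1.62-fold higher before scanner error (SE 0.46 on the log2 scale). So was the epidermal kallikrein *Klk5*, at 6.02 in WT and 31.8 in KO, at least 1.45-fold higher before scanner error (SE 1.48).

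Cofactors and receptors of serpins, 8 measured of 10, had a median of 0.22 and ranged from -0.26 to 0.42. The 9 procollagen partners of *Serpinh1* were all measured, 4 higher and 5 lower, with a median of -0.05 and a range of -0.51 to 0.35. The -0.23 of *Serpinh1* lies within that range.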

How the data were processed

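RNA of 2 incisor samples, 1 a genotype, was labelled with Cy3 and hybridised to Agilent SurePrint G3 mouse arrays on the same slide. Per the labels, the authors used Agilent Feature Extraction 10.7.3.1. The deposited processed signal is an intensity from which the scanner software had removed background, with its error and its marks for background, saturation and outliers. The deposited value table holds a linear ratio of that signal to 1 number per array, 268 for WT and 276 for KO. The paper names a percentile shift and a low-signal filter but gives no values for them.

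From the processed signals of 62976 spots, 59305 of them other than controls, log2 of the signal over the array's 75th percentile was computed and averaged over the spots of a probe, leaving out 267 outlier spots. The gene took its brightest probe. Well above background were 49.7% of these non-control spots in WT and 50.4% in KO. A gene above background on 1 array alone got a bound, its normalised signal over the larger of the dim array's value for the gene and that array's lowest signal with the mark, which is set spot by spot. The bound leaves out the scanner's error. Of the 76 member probes, 74 were matched to RefSeq by accession. The repeat-spot SD had a median of 0.09 over 269 probes. A fold of 2 served as the call, with no test. Every member above background on at least 1 array may be named, except 1 that counts in the totals but is not reported here, and listed genes only at 2-fold or more, apart from markers and 3 proteases (*F10*, *Klk5*, *Plau*) named after their values were seen. Steps were tested on simulated data. Other scalings, another background correction, other filters, other probe choices and a lower fold were run as alternatives. The members and lists were chosen with earlier results of these data known. Probe coordinates are mm9 as the files give them, promoters GRCm38.p6 from RefSeq, searched outside chromosome 18. Python 3.11.15, numpy 2.4.6, pandas 2.3.3, Biopython 1.88, R 4.3.3 and limma 3.58.1 were used.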

Additional observations from a re-analysis of the deposited data

How the results depend on the processing

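Of 79 values of the main results under 12 alternatives, 15 moved by more than their spread or, for counts, by more than 1.5 times. The median log2 ratio of the Serpin genes, 0.36, was 0.46 under a median shift, 0.15 with normexp background correction, 0.18 without a filter and 0.21 over genes with a mean signal of 100 or more. The count of Serpin genes at least 2-fold higher, 3, was 1 with normexp (*Serpinb3a* at 1.01), 5 without a filter, and 8 at a fold of 1.5. The count lower, 0, was 1 under the weaker background mark (*Serpini1*) and 1 without a filter. The count measured, 28, was 60 without a filter and 17 at a mean signal of 100 or more. The median of the pathway lists, 0.05, was 0.14 under the median shift. The *Sox21* ratio of -1.09 was -1.30 as the mean over probes and -1.51 at the dimmer probe, and the *Serpini1* bound of 2.04-fold was 1.27-fold with normexp. The median shift moved the median of all genes to 0.11, the share reading higher from 52.5% to 69.3%, and the genes past 2-fold from 102 higher and 94 lower to 135 and 66. With normexp these were 46 and 41, under the weaker mark 294 and 326, without a filter 513 and 702, and at a fold of 1.5 441 and 412. The Serpin median stayed above that of all genes under each alternative. Of 28 measured members, 25 kept their sign under every alternative run, the exceptions being *Serpina11*, *Serpina1a* and *Serpinf1*. Much of this was fixed beforehand. The lower fold, the weaker mark, no filter, the signal minimum and the deposited values left each member's ratio as it was. Other probe choices could change only the 6 genes with both probes measured. The share of all genes that kept their sign was not computed. With normexp, *Serpinb2* was 0.53, *Serpinb3c* 0.65 and *Serpinb10-ps* 0.47. Keeping outlier spots and the signal minimum of 100 were chosen after seeing the data. No paired analysis was possible because each genotype has 1 array. Dim signal limits the ratios of 11 members under a mean of 100, and the cause of each move was not tested.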
